A study of Mus musculus with 6 samples.

Results

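The group described here is 38 genes of the actin, myosin and spectrin cytoskeleton, taken as a fixed list of gene symbols out of 55331 genes in the deposited gene table. The list holds chains of nonmuscle myosin, unconventional myosins, proteins that bundle and anchor the actin core of microvilli, crosslinkers and regulators of the cell cortex, adhesion linkers, plakins, and the spectrin and protein 4.1 membrane skeleton. All 38 symbols were found in the gene table, and 34 of them had splicing events with enough reads to be described.

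RNA was sequenced from small intestinal crypt cells of 3 WT and 3 PTBP1_KO mice of the C57BL/6 strain, all 60 days old. WT mice had the genotype Ptbp1f/f, that is, floxed Ptbp1 alleles and no Cre, and PTBP1_KO mice had the genotype Ptbp1f/f;Vil-creER+/-, in which villin regulatory sequence drives a tamoxifen-dependent Cre in intestinal epithelium. Both groups carried the floxed alleles and both were given tamoxifen at 100 mg/kg on 2 successive days, with collection 20 h after the last injection. The study asked what PTBP1, an RNA-binding protein that acts on splicing, does in the regeneration of this epithelium. In the deposited gene table Ptbp1 itself stood at 230.0 FPKM (fragments per kilobase of transcript, scaled to library size) in WT and 123 FPKM in PTBP1_KO, with an authors' q-value of 0.0125, so its transcript was lower but still present in the PTBP1_KO libraries. The 6 epithelial markers examined lay between 227 and 2011 FPKM in WT.

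Enterocytes carry a brush border of microvilli, each built on a bundle of actin filaments held together by villin, plastin and espin and tied to the membrane by ezrin and myosin 1a. Beneath it lies the terminal web, where nonmuscle myosin 2 and a spectrin lattice join the bundles to the cell junctions. Many of these proteins are made in several forms through short alternative exons, and PTBP1 binds pyrimidine-rich RNA and often blocks the use of the exons beside it.

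The comparison of gene levels and the comparison of splicing could not be read in the same direction. The gene table names its columns WT and PTBP1_KO. The splicing tables set 3 libraries against 3 others, called the first and the second set here, and name the genotype of neither, so every splicing difference below is between these sets, with no direction by genotype. No library was given a genotype from its values.

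Exons that the splicing results turn on are printed first, from GENCODE M21 transcripts on GRCm38. Capitals mark the alternative exon and lower case the 12 bases of the neighbouring exons. The first 4 are those of the changed skipped exons that could be shown, and the others were chosen after their values were seen, for their low FDR and high read numbers. For Myl6 the capitals stop at the stop codon. For Add1 the last bases of the exon, TA, begin the stop codon, which is completed in the next exon. No base after the Add1 exon is shown, so its stop codon is not printed whole.
Myh14 exon of 24 bases: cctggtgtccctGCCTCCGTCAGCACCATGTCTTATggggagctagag
Epb41 exon of 63 bases: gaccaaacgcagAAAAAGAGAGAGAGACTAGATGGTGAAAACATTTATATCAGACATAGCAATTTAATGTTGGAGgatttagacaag
Cobl exon of 75 bases: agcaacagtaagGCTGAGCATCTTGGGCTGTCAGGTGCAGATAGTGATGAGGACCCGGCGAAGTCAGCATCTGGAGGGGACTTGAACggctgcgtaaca
Myl6 exon of 45 bases, up to the stop codon: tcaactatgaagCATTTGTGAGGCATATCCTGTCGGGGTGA
Actn4 exon of 86 bases, upstream one of a pair: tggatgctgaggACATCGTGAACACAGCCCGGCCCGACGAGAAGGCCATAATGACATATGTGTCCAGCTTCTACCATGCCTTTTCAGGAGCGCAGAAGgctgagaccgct
Actn4 exon of 86 bases, downstream one of the pair: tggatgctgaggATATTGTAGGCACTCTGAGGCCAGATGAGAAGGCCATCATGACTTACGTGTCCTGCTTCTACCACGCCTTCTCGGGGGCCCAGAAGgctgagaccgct
Cttn exon of 111 bases: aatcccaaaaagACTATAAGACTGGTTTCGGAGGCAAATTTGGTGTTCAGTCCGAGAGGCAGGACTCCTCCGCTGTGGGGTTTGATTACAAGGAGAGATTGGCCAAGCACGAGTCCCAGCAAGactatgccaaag
Myo6 exon of 39 bases: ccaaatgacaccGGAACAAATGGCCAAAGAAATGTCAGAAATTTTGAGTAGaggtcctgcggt
Add1 exon of 37 bases: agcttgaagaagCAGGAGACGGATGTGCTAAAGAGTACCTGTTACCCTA

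None of the 38 genes passed the test of a changed level between WT and PTBP1_KO. The gene table gives 1 FPKM value per group, so no spread between libraries could be computed and the depth behind each value is unknown. Of the 38 genes, 36 were tested by the authors and 0 had a q-value below 0.05 in the authors' deposited table, where 0.537% of the 15460 tested genes did. Before adjustment 1 member, Myl9, had a p-value below 0.05, against 4.35% of all tested genes in the authors' deposited table. Listed values were higher in PTBP1_KO for 25 of the 36 members and lower for 11, and 54.7% of all tested genes were listed higher. The median log2 ratio of PTBP1_KO over WT, after adding 1 FPKM to each value, was 0.046 over the members and 0.017 over all tested genes. Without regard to sign the median was 0.063 for members and 0.097 for all tested genes.

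**Figure D1:**
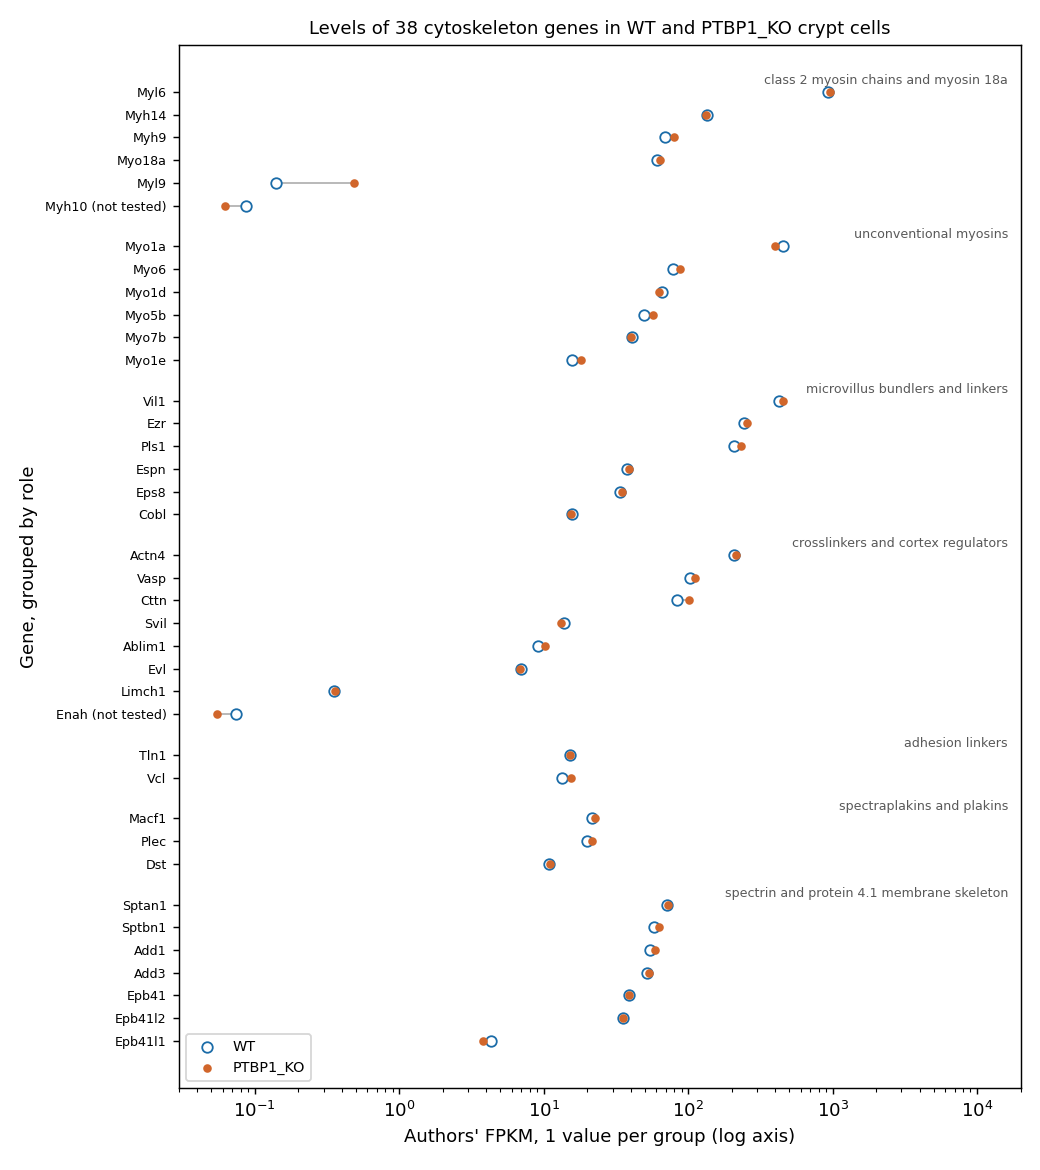
The authors' FPKM of each of the 38 genes in WT (open circles) and PTBP1_KO (filled circles), 1 value per group on a log axis, with genes grouped by role and no error available. Pairs of circles nearly coincide over most of the range, from 934 FPKM for Myl6 in WT down to 4.34 FPKM for Epb41l1, and Myl9 stands apart at 0.140 and 0.483 FPKM.

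Among the class 2 myosin chains, which form the contractile bipolar filaments of the cortex and terminal web, the light chain Myl6 was the most abundant member. Myl6, the essential light chain, was listed at 934 FPKM in WT and 953 FPKM in PTBP1_KO. Of the heavy chain transcripts among the members, that of Myh14 (myosin 2C) was listed highest, at 134 and 133 FPKM. Myh9, the heavy chain of myosin 2A, stood at 68.9 and 79.3 FPKM. Myh10, the heavy chain of myosin 2B, was near 0 at 0.0875 and 0.0619 FPKM and was not tested. Myo18a, a myosin that joins the same filaments, was listed at 61.2 and 63.4 FPKM.

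Myl9, the regulatory light chain typical of smooth muscle, was listed at 0.140 FPKM (WT) and 0.483 FPKM (PTBP1_KO). The authors' deposited table gave this as 1.78 on the log2 scale, with a p-value of 0.0051 and a q-value of 0.363, so it did not pass the adjusted test. Smooth muscle genes were also near 0. Acta2, smooth muscle actin, was listed at 0.115 and 0.223 FPKM and Tagln at 0.134 and 0.342 FPKM, while 4 of the 10 smooth muscle and fibroblast markers were not tested, and none of the 10 was at 0 in both groups. Summed over that list the level was 6.75 FPKM in WT and 7.86 FPKM in PTBP1_KO, most of it Vim at 4.90 and 6.28 FPKM. Of the 6 markers tested 3 were listed higher and 3 lower, and the lower ones were the fibroblast collagens, Col1a1 at 0.252 and 0.0997 FPKM, Col1a2 at 0.334 and 0.153 FPKM and Col3a1 at 0.749 and 0.328 FPKM. Their part in the Myl9 values was not tested, and in bulk samples fewer cells of a type and less RNA per cell cannot be told apart.

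The unconventional myosins move cargo or tie membrane to actin. Myo1a, the main lateral link between microvillus core and membrane, was listed at 451 FPKM (WT) and 400.1 FPKM (PTBP1_KO), with a log2 fold change of -0.17 and a p-value of 0.522 in the authors' deposited table. Myo6, which moves toward the minus end of filaments at the microvillus base, was at 78.5 and 88.3 FPKM, and Myo1d, another membrane myosin of the brush border, at 65.7 and 63.0 FPKM. The level of Myo5b, the motor of recycling endosomes, was 49.6 FPKM in WT and 57.2 FPKM in PTBP1_KO. Myo7b, the myosin of the links between microvillus tips, stood at 40.6 and 40.0 FPKM, and Myo1e at 15.7 and 18.1 FPKM. None of the 6 passed the authors' test, and 3 were listed higher and 3 lower.

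The bundlers and linkers of microvilli were high, and none passed the test. Vil1 (villin) was listed at 423 and 454 FPKM in WT and PTBP1_KO, Ezr (ezrin) at 244 and 257 FPKM, and Pls1 (plastin 1) at 208 and 232 FPKM. Espn (espin, a bundler) stood at 37.9 and 38.8 FPKM, Eps8 (a capping and bundling protein of the tips) at 33.6 and 34.6 FPKM, and Cobl (cordon-bleu, an actin nucleator at the microvillus base) at 15.7 and 15.3 FPKM. Of these 6 genes 5 were listed higher in PTBP1_KO, by at most 0.16 on the log2 scale of the authors' deposited table.

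Of the crosslinkers and cortex regulators, Actn4 (α-actinin 4, which crosslinks filaments) was highest at 207 and 214 FPKM. Vasp, which extends filaments at their growing ends, was at 103 and 111 FPKM and its relative Evl at 6.92 and 6.80 FPKM, while Enah, the third of that family, was near 0 at 0.0743 and 0.0549 FPKM and was not tested. Cttn (cortactin, which stabilises branched actin) had, after Myl9, the largest log2 fold change that the authors' deposited table gave a tested member, 0.30 with a p-value of 0.411, at 83.2 and 102.1 FPKM. Svil (supervillin) was listed at 13.9 and 13.2 FPKM, Ablim1 at 9.07 and 10.1 FPKM, and Limch1, an activator of nonmuscle myosin 2, at 0.356 and 0.357 FPKM.

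The linkers of adhesions and the large scaffolds were lower and also passed no test. Tln1 (talin, which joins integrins to actin) was listed at 15.2 FPKM in both groups and Vcl (vinculin) at 13.4 and 15.5 FPKM. Among the plakins, giant proteins that join filament systems to each other and to junctions, Macf1 stood at 21.6 and 22.6 FPKM, Plec (plectin) at 20.1 and 21.4 FPKM and Dst (dystonin) at 10.9 and 11.1 FPKM. In the membrane skeleton, Sptan1 (spectrin α) was listed at 71.9 and 72.3 FPKM, Sptbn1 (spectrin β) at 58.2 and 62.8 FPKM, and the adducins Add1 and Add3, which cap filaments and recruit spectrin, at 54.7 and 58.6 FPKM and at 52.0 and 53.2 FPKM. The protein 4.1 genes, whose products join spectrin and actin to membrane proteins, were at 39.2 and 38.8 FPKM for Epb41, at 35.3 and 35.1 FPKM for Epb41l2 and at 4.34 and 3.78 FPKM for Epb41l1.

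Outside the 38 genes, 123 other cytoskeleton genes were looked up in 8 lists, and 106 were tested. The authors' deposited table called 2 of the 106 higher and 0 lower. Gsn (gelsolin, which severs and caps filaments) was listed at 15.8 FPKM in WT and 24.0 FPKM in PTBP1_KO, and Msn (moesin, the relative of ezrin that leukocytes use) at 2.199 and 3.85 FPKM. Immune markers were higher alongside: 8 of 9 were listed higher in PTBP1_KO and 3 were called in the authors' deposited table, their summed level was 111 FPKM in WT and 192 FPKM in PTBP1_KO, and none was at 0. Gzma was listed at 54.9 and 101.4 FPKM, Gzmb at 18.9 and 35.3 FPKM, and Cd8a at 4.30 and 7.52 FPKM. Their part in the Gsn and Msn values was not tested.

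Splicing was measured as the inclusion level, the share of transcripts that hold a region, computed in each library from the reads of both forms and the form lengths. Widths of exact 95% binomial (Clopper-Pearson) intervals of single libraries are given for the changed events and cover counting error only, since PCR reads are not independent molecules. A total of 379 events of 34 members had a mean of 20 or more reads per library, out of 53918 such events in the 5 tables. An event was called changed when the authors' false discovery rate (FDR) was below 0.05 and the inclusion level difference, first set minus second set on a scale of 0 to 1, was at least 0.1 in size. Of the 379 member events 6 changed by the authors' deposited tables, 1.58%, against 1.56% of all events. The 6 events lie in 5 genes: Myh14, Myl6 (2 events), Cobl, Epb41 and Epb41l1. The share is near the background, and the number of changed events says nothing particular about these genes.

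By type, 5 of 288 skipped exons changed in the authors' deposited table, against 1.68% of all skipped exons. For mutually exclusive exons 1 of 62 changed, against 1.02% of all. None of 6 alternative 5' splice sites, none of 16 alternative 3' splice sites and none of 7 retained introns changed, where 1.57%, 1.10% and 2.06% of all events of those types did, by the authors' deposited tables. Inclusion was higher in the second set for 4 of the 5 changed skipped exons (Myh14, Myl6, Cobl and Epb41) and higher in the first set for Epb41l1. Over all skipped exons the opposite direction was the more frequent, with 1.11% changed and higher in the first set and 0.567% changed and higher in the second, in the authors' deposited table. With no minimum difference the members' split was nearly even, with 8 skipped exons of an FDR below 0.05 higher in the first set and 9 higher in the second. All 5 changed exons lay among the 38 member skipped exons with a pooled inclusion between 5 and 95 percent. Over all genes 629 of the 6169 skipped exons in that range changed, which is 629 of the 632 changed. None of 204 member exons above 95 percent and none of 46 below 5 percent changed. Outside that range a difference of 0.1 can hardly be reached, so the place of the changed exons was nearly fixed by the threshold.

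**Figure D2:**
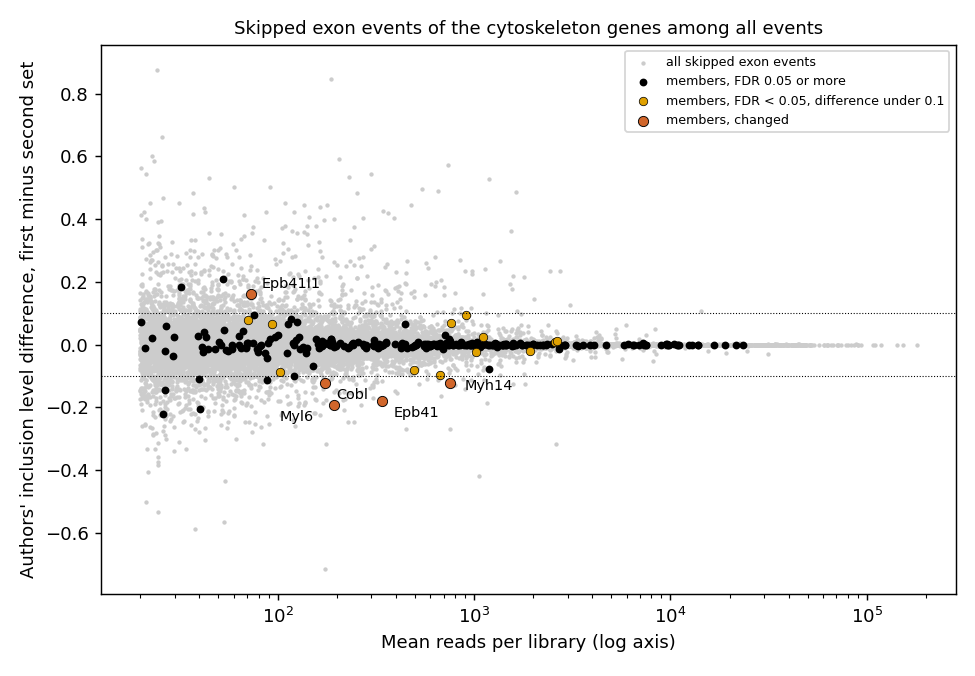
The authors' inclusion level difference (first set minus second set) of each skipped exon against its mean reads per library on a log axis. Grey points are all 37725 skipped exon events, black points the members, yellow points members with an FDR below 0.05 and a difference under 0.1, orange points the 5 changed events, and dotted lines mark a difference of 0.1 in either direction. Most member events lie close to 0, and Epb41l1 is the one changed exon above the upper line.

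Myh14, the heavy chain of nonmuscle myosin 2C, differed in a short exon in the head of the motor. The 24-base exon at chr7:44657417-44657440 on the minus strand codes for 8 residues, at codons 228 to 235 of the annotated transcript, in the region of the motor where nonmuscle myosins carry a small alternative insert. Its inclusion was 86.4%, 88.9% and 82.4% in the first set and 99.2%, 97.3% and 97.5% in the second. The sets did not overlap, and the gap between them, 8.47 percentage points, was wider than the widest range within a set, 6.44 percentage points. The authors' deposited table gave a difference of -0.121 and listed the FDR as 0, on a mean of 754 reads per library, and the interval of a single library was at most 5.95 percentage points wide. None of the other 8 Myh14 events had an FDR below 0.05 in the authors' deposited tables.

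Epb41, the founding member of the protein 4.1 family, differed in an exon of the domain that binds spectrin and actin. The 63-base exon at chr4:131962924-131962986 on the minus strand adds 21 residues, codons 654 to 674. Inclusion was 30.9%, 43.3% and 44.3% in the first set and 53.2%, 63.1% and 56.1% in the second. Libraries of the first set spread over 13.4 percentage points, more than the 8.93 percentage points that separate the sets. In the authors' deposited table the difference was -0.180 with an FDR of 0.000884, on a mean of 342 reads, and single-library intervals were at most 12.5 percentage points wide. Another Epb41 exon, of 450 bases, was at 68.6% to 81.8% in the first set and 79.5% to 84.6% in the second, with an FDR of 0.0573 in the authors' deposited table.

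Epb41l1, a relative of Epb41, differed in the opposite direction. Its 408-base exon at chr2:156524881-156525288 on the plus strand codes for 136 residues, codons 557 to 692, and is too long to print here. Inclusion was 36.6%, 29.6% and 42.0% in the first set and 18.5%, 20.1% and 20.7% in the second, so no library of one set reached the other. The difference in the authors' deposited table was 0.163 with an FDR of 0.0107, on a mean of 73.0 reads. Intervals of single libraries were 14.7 to 24.8 percentage points wide. At an FDR below 0.01 it would not be called. The third gene of the family, Epb41l2, had 25 events, none with an FDR below 0.05 and none with a difference above 0.021 in size in the authors' deposited tables.

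Cobl, the actin nucleator, differed in a 75-base exon at chr11:12365105-12365179 on the minus strand. The exon codes for 25 residues, and the annotated protein is 1337 codons long with it and 1312 without it. Inclusion was 77.7%, 79.9% and 78.5% in the first set and 93.4%, 96.1% and 83.3% in the second. Library 3 of the second set lay 3.35 percentage points above the highest library of the first set, and the other 2 lay well above it. In the authors' deposited table the difference was -0.122 with an FDR of 0.00454, on a mean of 174 reads, and the intervals of single libraries were up to 16.8 percentage points wide.

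Myl6, the essential light chain, is made with alternative C-terminal ends that distinguish smooth muscle from nonmuscle myosin, and 2 of its events changed. The 45-base exon at chr10:128491720-128491764 on the minus strand holds its own stop codon and supplies codons 143 to 151. In the changed event its downstream neighbour was a minor exon. Inclusion was 40.1%, 43.0% and 51.5% in the first set and 67.0%, 66.3% and 58.5% in the second. The authors' deposited table gave a difference of -0.191 and an FDR of 0.000218 on a mean of 194 reads, with single-library intervals of up to 15.6 percentage points. The same exon in the event with the main downstream exon rested on a mean of 2720 reads. There inclusion was 3.49%, 4.61% and 4.22% in the first set and 5.47%, 6.00% and 4.63% in the second, with a difference of -0.013 and an FDR of 0.152 in the authors' deposited table. The changed event counted 149, 160 and 124 inclusion reads in the second set. There the minor exon itself had 29, 36 and 39 inclusion reads in its 62-base form and 79, 89 and 90 in its 58-base form. Inclusion reads of the 45-base exon can therefore also come from transcripts without the minor exon. The level in the changed event is not the inclusion among transcripts that hold the minor exon.

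That minor exon was itself rare, with 2 forms of 62 and 58 bases. The 62-base form was included at 1.54% to 1.87% in the first set and 0.783% to 0.925% in the second, and the 58-base form at 2.95% to 3.53% and 2.15% to 2.28%. Both had an FDR below 0.05 in the authors' deposited table, with differences of 0.009 and 0.011. The other changed Myl6 event is a pair of mutually exclusive exons of 107 and 20 bases, at chr10:128492939-128493045 and chr10:128493334-128493353. The longer lies in a transcript annotated for nonsense-mediated decay and the shorter in a non-coding transcript. Use of the 20-base exon was 43.4%, 67.7% and 52.7% in the first set and 13.3%, 0% and 28.5% in the second, where 0 of 37 reads allows up to 11.9%. The difference in the authors' deposited table was 0.407 with an FDR of 0.00015, on a mean of only 36.0 reads, with 22 in the shallowest library and intervals of up to 38.5 percentage points. In its deepest event the 107-base exon was included in 0.150% of pooled transcripts, so this pair describes a trace of Myl6 RNA.

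**Figure D3:**
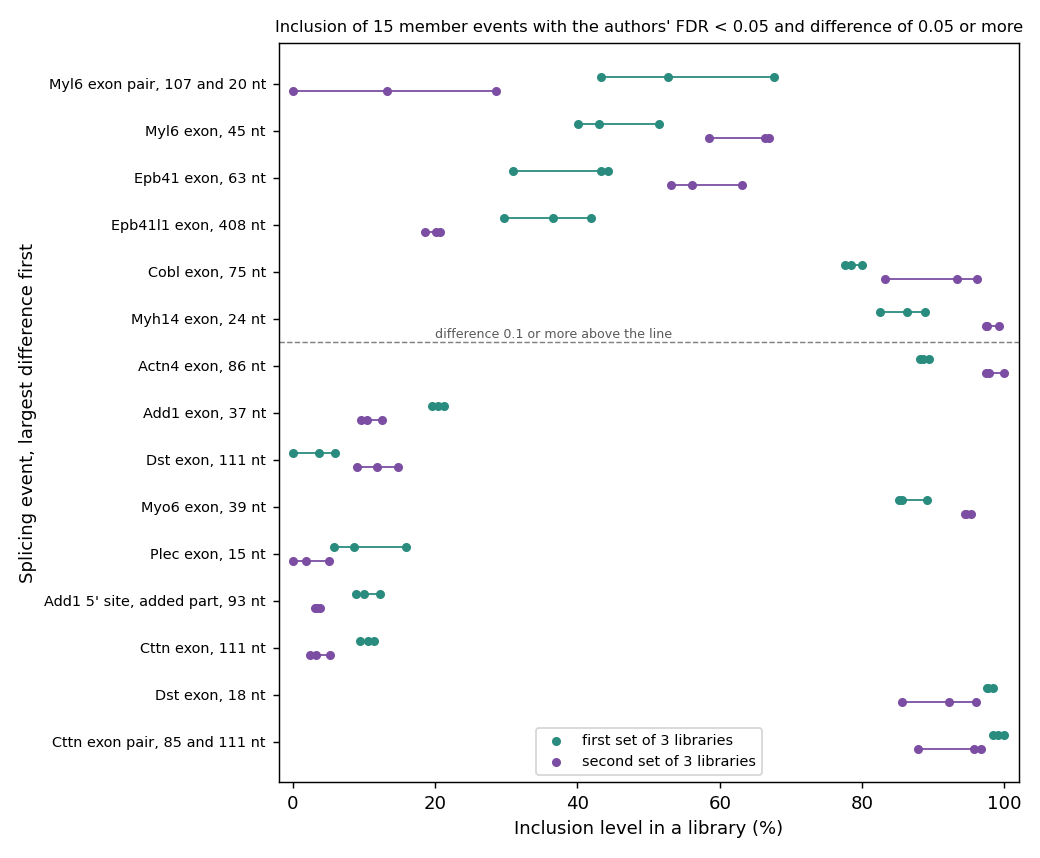
Inclusion level in percent in each library for the 15 member events with an FDR below 0.05 and a difference of at least 0.05, largest difference first. Green points are the 3 libraries of the first set, purple points those of the second, lines join the lowest and highest library of a set, and the 6 events above the dashed line are the changed ones. No event shown has overlapping sets, and the 2 sets come closest together for the 15-base exon of Plec.

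Smaller differences were found in more of the genes than the changed events show. Of the 379 member events 24 had, by the authors' deposited tables, an FDR below 0.05 with no minimum difference, 6.33%, against 3.76% of all events. Among skipped exons it was 17 of 288, 5.90%, against 3.79% of all. These 24 events lie in 12 members, and 18 of them differed by less than 0.1. Some of them score the same exons, as in Actn4, Cttn and Myl6, so they are not 24 separate differences. The part of such repeats in the share was not tested. Member events had more reads than others, with a median of 600 reads per library against 262 over all events, and the part of that depth in the larger share was not tested. The 2 sets did not overlap in 51 of 379 member events, 13.5%, against 9.19% of all events. All 24 member events with an FDR below 0.05 were among the 51. Over all genes the sets did not overlap in 76.6% of the 2027 events with such an FDR.

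Actn4 had 5 events with an FDR below 0.05, more than any other member, though several of them score the same exons. α-Actinin 4 can use either of 2 exons of 86 bases in its actin-binding domain, at chr7:28911490-28911575 and chr7:28909903-28909988 on the minus strand. The pair shares 65 of 86 bases (75.6%). The upstream exon was included at 88.1%, 89.4% and 88.6% in the first set and 97.8%, 100% and 97.4% in the second. The downstream exon was at 2.54%, 2.595% and 3.06% in the first set and 0.376%, 0.328% and 0.186% in the second, the opposite direction. When the pair was scored as mutually exclusive exons, use of the upstream exon was 94.6%, 95.04% and 94.3% in the first set and 99.2%, 99.8% and 99.2% in the second. Differences in the authors' deposited tables were -0.097, 0.024 and -0.048 for these 3 events, with FDRs listed as 0, 3.5e-12 and 0. All 3 missed the minimum difference of 0.1, the first of them narrowly. In the events of single exons each exon of the pair is the neighbour of the other, and all 3 events score the same choice. The opposite directions are therefore largely built into the events and are not separate results. The 81-base exon of the C-terminal calcium-binding part at chr7:28895432-28895512 was at 95.3%, 97.0% and 95.5% in the first set and 98.2%, 97.5% and 98.6% in the second, with a difference of -0.022 and an FDR of 0.00303 in the authors' deposited table. Scored against a 66-base exon in its place, the 81-base exon differed by -0.007 with an FDR of 0.0165 in the authors' deposited table. The 66-base exon is part of each of these events, as a neighbour or as the alternative. In a further event without it, on a mean of 2919 reads, the 81-base exon was included at 99.9% to 100% in every library. The difference there was 0 in the authors' deposited table.

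Cttn differed in the use of its repeat exons. Cortactin binds filaments through tandem repeats, several of them coded by exons of 111 bases, and the exon at chr7:144450978-144451088 on the minus strand adds 37 residues, to give 546 codons in place of 509. It is 63.1% identical to the repeat exon before it and 60.4% identical to the one before that. Inclusion was 9.44%, 11.4% and 10.6% in the first set and 2.36%, 5.18% and 3.27% in the second. In the authors' deposited table the difference was 0.068 and the FDR was listed as 0, on a mean of 762 reads. This exon was also in 2 mutually exclusive events with an FDR below 0.05 in the authors' deposited table. Scored against an 85-base exon, its use differed by 0.058 in the authors' deposited table, on the same inclusion reads. In the event with the repeat exon before it, the use counted was that of the earlier exon. That use differed by -0.024 in the authors' deposited table, so the later exon was again used more in the first set. Another such event paired the 2 repeat exons before it with each other, and use of the earlier of these differed by -0.039 in the authors' deposited table. The other repeat exons were included at 99.35% or more in every library in their deepest events.

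Add1 differed at 2 places in its C-terminal part. The 37-base exon at chr5:34629136-34629172 on the plus strand brings an early end of the reading frame, with 663 codons against 735 without it, and so replaces the basic tail of the long α-adducin. Inclusion was 20.4%, 19.6% and 21.3% in the first set and 10.4%, 12.6% and 9.65% in the second. The sets were 7.03 percentage points apart and no set spread over more than 2.94. The difference in the authors' deposited table was 0.096 with an FDR of 1.43e-09, just under the minimum, on a mean of 907 reads. An alternative 5' splice site that adds 93 bases was used at 12.2%, 8.89% and 9.99% in the first set and 3.34%, 3.09% and 3.86% in the second, with a difference of 0.069 and an FDR listed as 0 in the authors' deposited table. Add3 had 15 events and none with an FDR below 0.05.

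Myo6 differed in a 39-base exon at chr9:80296643-80296681 on the plus strand, in the tail that binds cargo, at codons 1055 to 1068. Inclusion was 85.2%, 89.1% and 85.6% in the first set and 94.5%, 95.3% and 94.6% in the second. The difference in the authors' deposited table was -0.082 with an FDR of 1.15e-07, on a mean of 497 reads. Pls1 differed by less, in a 105-base exon that holds the start of the coding sequence, at 95.7%, 96.3% and 96.8% in the first set and 98.9%, 97.1% and 98.7% in the second, with a difference of -0.020 in the authors' deposited table.

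**Figure D4:**
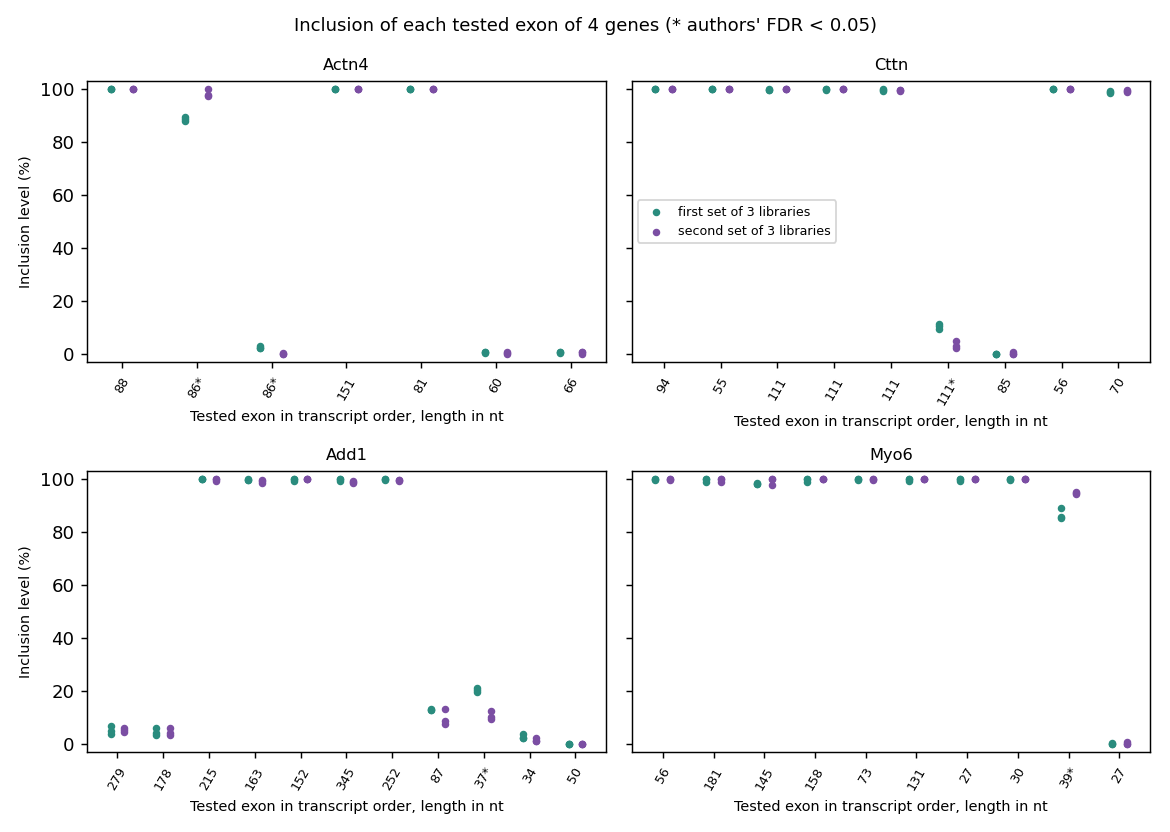
Inclusion level in percent of every tested exon of Actn4, Cttn, Add1 and Myo6 in transcript order, each exon shown in its event with the most reads, with 3 points per set of libraries (green first, purple second). Most exons sit near 0% or 100% in all 6 libraries, and the exons marked with an asterisk had an FDR below 0.05 in the event shown.

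The plakins differed in rarely used or rarely skipped exons, on few reads. Dst had a 111-base exon at chr1:34303421-34303531 included at 3.66%, 0% and 5.98% in the first set (0 of 62 reads allows up to 2.79%) and 11.9%, 8.99% and 14.8% in the second, and an 18-base exon included at 97.6%, 98.3% and 97.5% and at 92.2%, 96.0% and 85.6%. Differences in the authors' deposited table were -0.087 and 0.065, with FDRs of 2.19e-05 and 0.00389, on means of 103 and 94.2 reads. Plec had a 15-base exon of its actin-binding domain at chr15:76194559-76194573, included at 15.9%, 8.57% and 5.84% in the first set and 5.06%, 0% and 1.85% in the second, where 0 of 41 reads allows up to 6.67%. The nearest libraries of the 2 Plec sets lay 0.783 percentage points apart, less than the 10.03 percentage points that the first set spanned, with a difference of 0.078 and an FDR of 0.00239 in the authors' deposited table. Macf1 had 4 events, none with an FDR below 0.05, and its 102-base exon had a difference of 0.066 in size, the largest of the members without such an event that rest on a mean of 100 or more reads.

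Exons of members with an FDR below 0.05 were mostly short and of a length that is a multiple of 3. Exons with the same 2 ends were counted once, so the 62-base and 58-base forms of the minor Myl6 exon counted separately. On that count 12 of 17 had a length that is a multiple of 3 (70.6%). So did 127 of the 234 member exons tested (54.3%) and 39.9% of the 31375 exons tested in all genes. The median length was 63 bases for the 17 exons, from 15 to 408, against 111 for the members' tested exons and 115 for all. These shares are descriptions, since the exons were picked by the difference. They also rest on length alone, which does not show that the reading frame goes on. The 45-base Myl6 exon counted here holds a stop codon, and the 105-base Pls1 exon holds the start of the coding sequence. Of the 6 changed events, 4 were skipped exons that add whole codons in a frame that goes on (Myh14, Epb41, Epb41l1 and Cobl), and the other 2 were the events in Myl6 transcripts described above.

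In 22 of the 34 members with events none had an FDR below 0.05. They include villin, ezrin, most unconventional myosins and both spectrins. Vil1 had 11 events, none differing by more than 0.017, and Ezr had 3, all with a difference of 0 in the authors' deposited tables. Myo1a had 17 events with differences of at most 0.026, Myo7b 22 with at most 0.035, Myo5b 13 with at most 0.016, Myo1d 10 with at most 0.012 and Myo1e 5 with at most 0.017, by the authors' deposited tables. Spectrin varied as little: Sptan1 had 10 events of at most 0.019 and Sptbn1 had 4 of at most 0.004. Myh9 had 3 events of at most 0.005, Myo18a 10 of at most 0.047, Vasp 6 of at most 0.006, Vcl 2 of at most 0.013, Tln1 1 of 0.007 and Eps8 11 of at most 0.042, by the authors' deposited tables.

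A difference of at least 0.1 without an FDR below 0.05 was found in 10 member events, 9 of them on a mean below 100 reads. In 5 of the 10 the sets did not overlap. The 10 were picked by their difference, which favours sets that lie apart, and the share over all such events was not computed. The Espn exon of 27 bases was at 49.2% to 77.1% in the first set and 39.4% to 41.7% in the second, with a difference of 0.210 and an FDR of 0.136 in the authors' deposited table. Espn also had an alternative 3' splice site and a 243-base exon with differences of -0.184 and -0.113 in the authors' deposited tables. The sets were apart in these 3 Espn events and in 2 others. One was an Epb41l1 alternative 3' splice site of 24 bases, with a difference of 0.222 and an FDR of 0.0885 in the authors' deposited table, on a mean of 25.3 reads. The other was the Cttn exon of 111 bases described above, joined to another exon, with a difference of 0.184 and an FDR of 0.172 in the authors' deposited table. The sets overlapped in the other 5 events. These were the Myl6 exon of 107 bases (-0.205), a Svil exon of 108 bases (-0.145) and Dst exons of 5292, 127 and 2703 bases (-0.222, -0.110 and -0.100 in the authors' deposited table), and the last of them rested on a mean of 121.5 reads. Evl, Ablim1 and Add3 had 4, 13 and 15 events, with largest differences of 0.079, 0.090 and 0.071 in the authors' deposited tables. Myh10, Myl9, Enah and Limch1, all below 1 FPKM in both groups, had no event with enough reads.

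None of the 5 genes with a changed event passed the test of its level. Myh14 stood at 134 and 133 FPKM in WT and PTBP1_KO, Myl6 at 934 and 953, Cobl at 15.7 and 15.3, Epb41 at 39.2 and 38.8, and Epb41l1 at 4.34 and 3.78 FPKM. Of these 5 genes 4 were listed lower in PTBP1_KO and Myl6 higher, with log2 fold changes between -0.20 and 0.03 in the authors' deposited table. The 123 other cytoskeleton genes had 683 events in 86 genes, of which 19 in 11 genes changed by the authors' deposited tables. That is 2.78%, beside 1.58% for the 38 genes and 1.56% of all events. Epb41l3 alone held 6 of the 19, and some events score the same exon, so they are not 19 separate differences. The part of such repeats in this share was not tested.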

How the data were processed

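RNA of 3 WT and 3 PTBP1_KO samples was read out as a gene table and 5 splicing tables. The 38 members, the role groups and the other lists were chosen with earlier results of these data known. After removal of villi, crypt cells were freed with 2 mM EDTA over 30 min and passed through a 70 µm strainer, and a stranded mRNA kit was used, per the labels' protocols. Nothing says whether the 3 samples of a group were handled in more than 1 batch.

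FPKM values, 1 per group, were made by the authors with Cufflinks and Cuffdiff after bcl2fastq 2.20, Trimmomatic 0.38 and STAR 2.6.1d on mm10, per the submitters' processing notes. For each gene the authors also deposited a log2 fold change with its p-value and q-value. In the splicing tables the read numbers of 3 libraries share a cell, per the file headers, and the inclusion level difference is a score from -1 to 1 that the authors deposited with a p-value and FDR. The version of the splicing caller is not given in the sources used here. The tables' own inclusion levels, in 10 columns, stayed unused.

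Inclusion was recomputed from reads divided by form length. The authors' difference was matched to within 0.00086 in all 379 member events. On the minus strand the mutually exclusive table counts the exon listed second as included, in 752 of 752 events where form lengths can tell, and on the plus strand the exon listed first, in 817 of 817. Summed over skipped exon events, libraries held between 32186405 and 39720787 reads, where a read can count in more than 1 event. No test of the sets was run, and no mean or SD was taken over them, since their genotype is not named. Intervals of single libraries are exact binomial ones on the reads, carried through the form lengths with scipy 1.17.1, and a count of 0 was taken to allow 3 counts. The p-values, q-values and FDRs are from the authors' tests of a difference between the groups or sets, and hold for these samples alone.

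A gene was called at q below 0.05, and an event at FDR below 0.05, a difference of at least 0.1 and a mean of at least 20 reads. Named genes were all members, every changed event, called genes of the other lists and the changed event with the smallest FDR of each list. Exons were matched to GENCODE M21 on GRCm38, 1-based. Intron flanks, the motif search and the protein look-up that had been planned were not used here. Alternatives were other thresholds, read minimums, pseudocounts and centring. Computation ran on Python 3.11.15 with matplotlib 3.10.9, numpy 2.4.6 and pandas 2.3.3, and the event computation was tested on simulated data.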

Additional observations from a re-analysis of the deposited data

How the results depend on the processing

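The count of members called in level was 0 at q below 0.05, 0 at q below 0.01 and 0 with a log2 fold change of at least 1 in size, and 1 at an unadjusted p below 0.05, by the authors' Cuffdiff values. The median log2 ratio was 0.0462, and 0.0469 with a pseudocount of 0.1, 0.0506 over members of at least 10 FPKM and 0.0296 after centring on all tested genes. The 6 changed events became 15 at a minimum difference of 0.05, 24 with no minimum and 1 at 0.2, and the 5 changed skipped exons became 12, 17 and 0. At an FDR below 0.01 there were 5 events and 4 skipped exons, and at a mean of 50 reads 5 and 5. A mean of 10 reads, 20 reads in every library, sets without overlap and 1 event per region each left 6 and 5. Over 5 of these settings, the 6 changed events were called in 23 of 30 checks. The 7 losses were the 5 skipped exons at a difference of 0.2, Epb41l1 at an FDR below 0.01 and the Myl6 exon pair at a mean of 50 reads. Each loss follows from the setting itself, since the values stay as deposited. No paired analysis was possible because the columns of libraries carry no sample number and no test was run on them. Leaving out each replicate was not run for the same reason. Depth limits events of few reads, and the depth behind the FPKM is unknown.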

Other observations

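Cytoskeleton genes outside the 38 also had changed splicing events, of which the one with the smallest FDR in each list is given, and at equal FDR the one with the largest difference. Epb41l3, of the protein 4.1 family, had a 123-base exon included at 52.7% to 64.2% in the first set and 14.4% to 22.4% in the second, with a difference of 0.408 and an FDR listed as 0 in the authors' deposited table, on a mean of 145 reads. The same exon in an event with a mean of 366 reads was at 20.3% to 24.6% and 4.08% to 6.68%, with a difference of 0.163 and an FDR also listed as 0 in the authors' deposited table. The formin Fhod1 had a 24-base exon at 35.8% to 55.5% in the first set and 5.93% to 14.04% in the second, with a difference of 0.353 in the authors' deposited table. Lmo7, which binds actin at junctions, had a 57-base exon at 50.9% to 64.4% in the first set and 84.5% to 86.8% in the second. Pxn (paxillin), in the same list as Lmo7, also had an FDR listed as 0 in the authors' deposited table, for a 102-base exon with a difference of 0.198. Abi1, a subunit of the complex that activates Arp2/3, had a 174-base exon at 72.1% to 92.9% in the first set and 50.2% to 70.2% in the second. A longer form of this exon, of 177 bases, also changed. It was at 71.4% to 92.6% and 51.2% to 71.6%, so its sets overlapped. Myo19, a mitochondrial myosin, retained an intron at 24.6% to 37.8% in the first set and 3.78% to 5.38% in the second. The 5 leading events had an FDR below 0.05 and no overlap of the sets in these libraries. Of the lists examined, actins and actin turnover (59 events), brush border and ERM proteins (157 events) and plakins with their partners (46 events) had no changed event in the authors' deposited tables.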
